A study of Mus musculus with 4 samples.

Results

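The tight junction genes described here were 10 genes chosen by name, out of 55487 genes listed for mouse small intestinal (SI) organoids. They were 7 claudins (Cldn2, Cldn3, Cldn4, Cldn7, Cldn8, Cldn15 and Cldn23), occludin (Ocln), the scaffold gene Tjp1 and the junctional adhesion molecule gene F11r, and all 10 were found by symbol. SI organoids grow from intestinal crypts as closed epithelial structures, and in this experiment all of them carried a lentivirus and were kept in 2 μg/ml puromycin so that transduced cells survived. The mimic control organoids (replicates 1 and 2) carried a miRNA mimic control and the mimic organoids (replicates 3 and 4) carried a miR-181a-5p mimic, which adds mature miRNA, with 2 RNA-seq libraries in each group. The strain, sex and age of the mice of this experiment, the promoter that drove the mimic, and whether the replicates stem from separate infections are not given in the sources used here, so the p-values measure only the spread between these libraries, which may be technical.

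Tight junctions seal the space between neighbouring epithelial cells near their apical side. Claudins are small membrane proteins that span the membrane several times, and their outer loops meet between cells and set which ions and how much water pass. Some claudins, such as those of Cldn2 and Cldn15, form pores for cations and water, and others, such as those of Cldn3 and Cldn4, mainly tighten the seal. Occludin and the product of F11r (JAM-A) are membrane proteins of the same junction, and the product of Tjp1 (ZO-1) ties the membrane proteins to actin under it. In the small intestine the pore claudins let sodium flow back to the lumen, which sodium-coupled nutrient uptake needs.

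The agent of the experiment is shown first, because a miRNA acts on mRNAs that match its seed (bases 2 to 8, in capitals). The mature sequence is from RefSeq for GRCm38.p6 and is encoded both by Mir181a-1 (chr1:137966468-137966490, plus strand) and by Mir181a-2 (chr2:38852741-38852763, plus strand), and the matching site in an mRNA reads TGAATGT.
mmu-miR-181a-5p: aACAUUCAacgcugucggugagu
No such site lay in the 3′ UTR of any of the 10 tight junction genes, in the longest annotated 3′ UTR of each gene in GENCODE release 21, whereas 19.1% of 12908 tested genes had one. The 3′ UTRs searched ran from 168 bases for Cldn7 to 2372 bases for Tjp1, with 994 bases for Cldn4 and 730 for Cldn23. Across all tested genes with a usable 3′ UTR the median log2 fold change was 0.02 with a site and 0.03 without. In coding sequence 1 of the 10 genes, F11r, had a site (12.7% of tested genes). Another form of site pairs with bases 2 to 7 of the miRNA and ends in an A. This form occurred in 1 of the 10 3′ UTRs, that of Cldn8 (13.2% of tested genes). Both are shown with their flanks, 30 bases each, with the site in capitals. The F11r stretch starts in exon 6 and ends in exon 7 of the transcript, so that an intron lies between its outer positions (chr1:171461661-171461829, plus strand, GRCm38), and the Cldn8 stretch is in the 3′ UTR (chr16:88561549-88561578, minus strand).
F11r coding sequence: tgctgtggagcTGAATGTggggggcatcgt
Cldn8 3′ UTR: tgtttagagaaGAATGTAttgtttttgaaa
A match of letters is a description and does not show that the miRNA bound there.

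Expected counts, which are RSEM's estimates of the reads from each gene, summed to between 31104884 and 38111731 per library, and 17155 genes were kept by the low-count filter of edgeR. Levels of a gene in different libraries are given below as normalized CPM, which are counts scaled to a common library size with TMM factors (0.978 to 1.01), and levels of different genes as TPM, which are also per transcript length. Changes are log2 fold changes of the mimic against the control, with standard errors (SE) and p-values with Benjamini-Hochberg adjustment over all 17155 genes, from edgeR's quasi-likelihood test. A gene was called at an adjusted p under 0.05. Epithelial markers were present at 5180 to 5704 CPM in sum in every library, 0 of 8 were called, and the markers of mesenchymal, endothelial and leukocyte cells summed to at most 8.65 CPM, with Col1a2, Col3a1, Dcn, Lum, Cdh5, Kdr, Emcn, Cd3g and Tyrobp at 0 counts throughout. No library repeated another, and the smallest p that an exact permutation test of 2 libraries against 2 can give is 0.333.

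With the miR-181a-5p mimic, 2 of the 10 tight junction genes fell, the barrier claudin gene Cldn4 and the claudin gene Cldn23, and none rose. Among all genes tested, 2.29% were called lower and 1.28% higher, and 1.47% were called lower with a change of at least 2-fold, as both of these were. All 10 log2 fold changes were below 0, with a median of -0.46, beside 51.4% of all tested genes below 0 and a median of -0.01. In 9 of the 10 genes, both mimic libraries were lower than both controls, which held for 29.5% of all tested genes, while 28.9% of all tested genes were higher in both. At an unadjusted p under 0.05 there were 7 of the 10 genes, beside 24.8% of all tested genes. The 10 genes were chosen with earlier results of these data known, so these shares are a description and not a test.

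Cldn4 (ENSMUSG00000047501) encodes a claudin of the tighter kind that is also, with the product of Cldn3, a receptor of Clostridium perfringens enterotoxin. Its level was 98.99 and 88.51 normalized CPM among the controls, against 18.22 and 33.46 under the mimic. Both mimic libraries were thus far below both controls, and replicate 3 was the lowest. The underlying counts were 3799 and 2745 among the controls, against 571 and 1192 under the mimic. Cldn4 fell 3.62-fold, a log2 fold change of -1.86 (SE 0.25, 95% confidence interval -2.44 to -1.27, adjusted p = 0.0143 by edgeR's quasi-likelihood test), which placed it at percentile 1.17 of all tested genes, counted from the largest decrease. The gene has a single exon and lies on chromosome 5 from 134945119 to 134946934 of GRCm38, on the minus strand.

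Cldn23 (ENSMUSG00000055976) encodes a claudin found towards the lumen in the differentiated cells of the intestine. It was a low gene of the set, at 15.37 and 15.54 normalized CPM in the controls, which were nearly equal, against 5.62 and 7.78 with the mimic. The groups did not overlap, and replicate 3 was again lower than replicate 4. Counts were 590 and 482 against 176 and 277. The decrease was 2.30-fold, a log2 fold change of -1.20 (SE 0.19, 95% confidence interval -1.64 to -0.77, adjusted p = 0.0215 by edgeR's quasi-likelihood test). Cldn23 also has a single exon and lies on chromosome 8 from 35824712 to 35826559, on the minus strand.

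**Figure D1:**
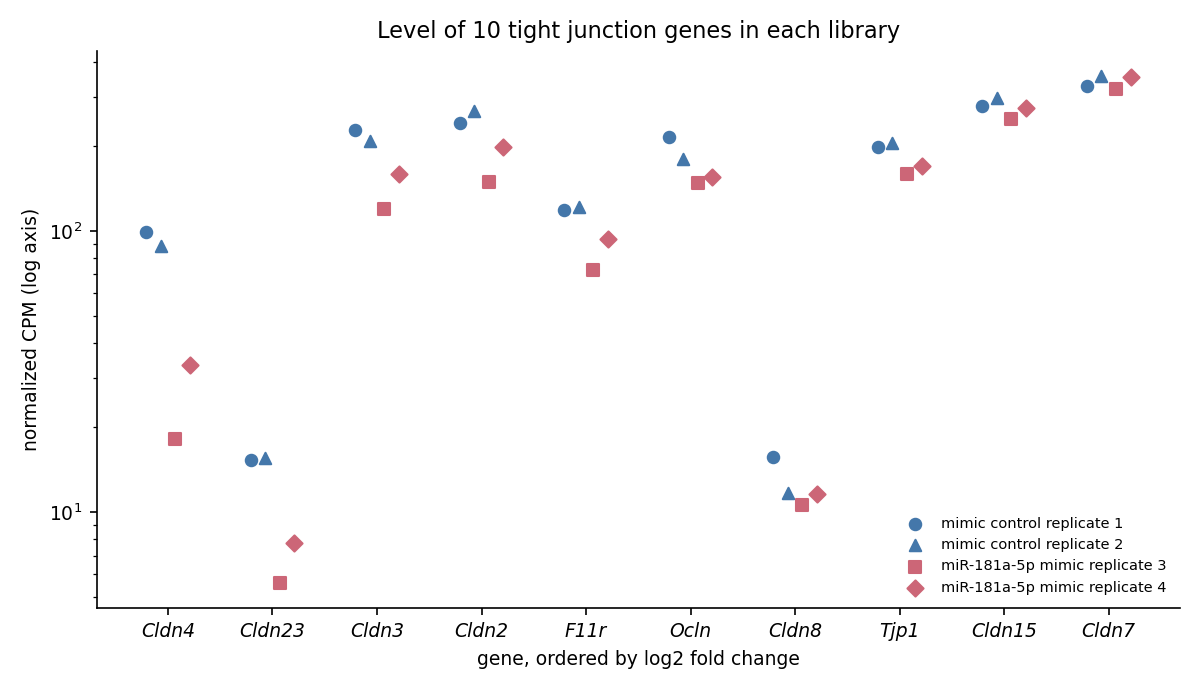
Normalized CPM (log axis) of the 10 tight junction genes in each of the 4 libraries, 2 mimic control (blue) and 2 miR-181a-5p mimic (red), with genes ordered from the largest decrease to the smallest change. On the log axis the mimic libraries lie farthest below their controls for Cldn4, at 18.22 and 33.46 CPM against 98.99 and 88.51, and they overlap the controls for Cldn7 alone.

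Cldn3, the other enterotoxin receptor gene and the neighbour of Cldn4 on chromosome 5 (134986214 to 134987472, plus strand, 1 exon), had 228.1 and 209.2 normalized CPM among the controls, against 120.1 and 158.9 under the mimic. Its groups were apart, but the log2 fold change of -0.65 (SE 0.14, 95% confidence interval -0.98 to -0.32) missed the threshold, with an adjusted p of 0.0526 by edgeR's quasi-likelihood test. An antisense gene, Wbscr25, overlaps Cldn3 at its end, and its highest count was 30, against at least 3763 counts for Cldn3 in every library.

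The pore claudin genes Cldn2 and Cldn15 had smaller decreases than Cldn4 and Cldn23, and neither was called. That of Cldn2 was close to that of Cldn3. Cldn2, whose protein passes cations and water, is on chromosome X (139800828 to 139811386, plus strand) and had 242.6 and 267.7 normalized CPM among the controls, against 149.2 and 199.5 under the mimic. Its log2 fold change was -0.55 (SE 0.15, 95% confidence interval -0.89 to -0.21), with an adjusted p of 0.0804 by edgeR's quasi-likelihood test. Cldn15, the other cation pore and a main claudin of the small intestine (chromosome 5, 136966616 to 136975858, plus strand), had 278.9 and 296.5 normalized CPM among the controls, against 251.1 and 274.7 under the mimic. The higher mimic library of Cldn15 lay just under the lower control, its log2 fold change was -0.13, and the 95% confidence interval of -0.36 to 0.10 included no change.

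Among the remaining claudins, Cldn7, whose protein also sits along the lateral membrane below the junction, is on chromosome 11 (69964779 to 69967885, plus strand) and had 327.2 and 355.6 normalized CPM among the controls, against 318.8 and 352.8 under the mimic. It was the only one of the 10 genes whose groups overlapped, and its log2 fold change of -0.02 had a 95% confidence interval of -0.27 to 0.22, and the sign changed under 5 of 15 alternatives. Cldn8, a barrier claudin gene on chromosome 16 (88560828 to 88563183, minus strand, 1 exon), had 15.69 and 11.70 normalized CPM among the controls, against 10.63 and 11.62 under the mimic. The second control and replicate 4 were nearly equal, and the log2 fold change of -0.30 had a 95% confidence interval of -0.72 to 0.11.

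The genes of the other junction proteins lay between these claudins. F11r, whose product JAM-A is an adhesion molecule of the immunoglobulin family (chromosome 1, 171437535 to 171464603, plus strand), had 119.0 and 121.9 normalized CPM among the controls, against 72.7 and 93.5 under the mimic, a log2 fold change of -0.54 (SE 0.13, adjusted p = 0.0682 by edgeR's quasi-likelihood test). Ocln, on chromosome 13 (100496507 to 100552718, minus strand), had 215.3 and 180.1 among the controls, against 148.1 and 156.1 under the mimic, a log2 fold change of -0.38 (SE 0.11, adjusted p = 0.103 by the same test from edgeR). Tjp1, on chromosome 7 (65296165 to 65527781, minus strand), had 198.9 and 206.3 among the controls, against 159.6 and 170.7 under the mimic, a log2 fold change of -0.29 (SE 0.094, adjusted p = 0.116 by edgeR's quasi-likelihood test). In each of these 3 genes the groups were apart and the 95% confidence interval lay below 0, with upper bounds of -0.23, -0.12 and -0.08, and none passed the threshold.

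**Figure D2:**
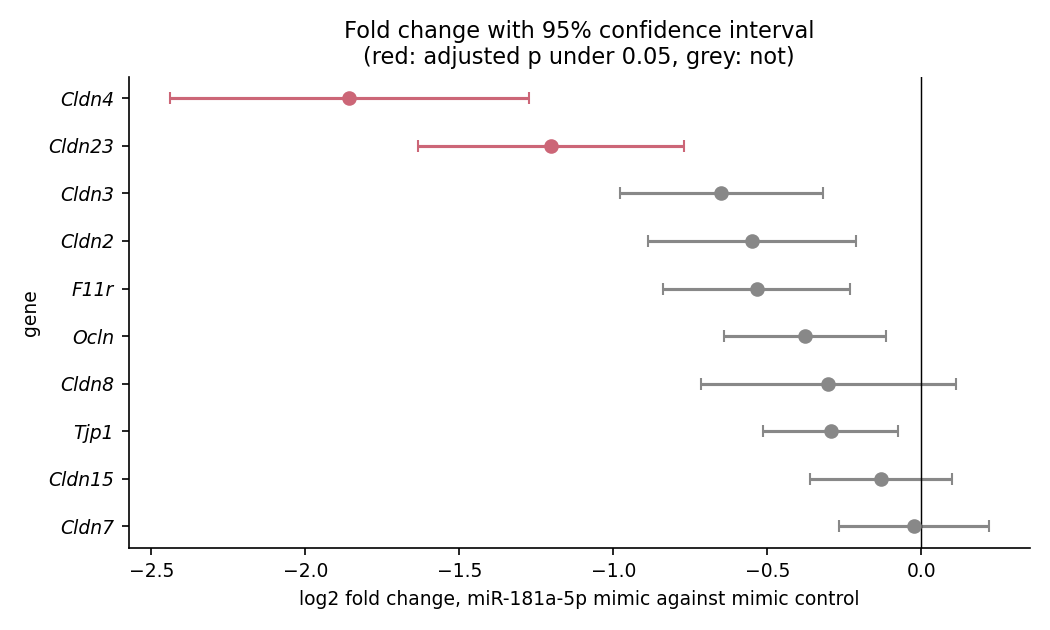
Log2 fold change of each of the 10 tight junction genes, mimic against control, as points with 95% confidence intervals from edgeR's quasi-likelihood test (red: adjusted p under 0.05, grey: not). Cldn4 at -1.86 and Cldn23 at -1.20 are the called genes, and only the intervals of Cldn8, Cldn15 and Cldn7 reach 0.

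The mimic libraries were not alike in how low these genes were. Replicate 3 was the lowest of the 4 libraries for all 10 genes, which held for 30.3% of all tested genes, and it was below replicate 4 for all 10, beside 50.3% of all tested genes. Leaving out 1 library leaves 1 in its group, so only log2 fold changes are given here for such fits. Without replicate 4 Cldn3 was at -0.86, Cldn2 at -0.77 and F11r at -0.72, beside -0.65, -0.55 and -0.54 with all 4 libraries. Without control replicate 2 Cldn3 was at -0.71, F11r at -0.51 and Ocln at -0.50, the last beside -0.38 with all 4. Leaving out replicate 3 moved Cldn4 to -1.48 and Cldn23 to -0.98 on the log2 scale, so that Cldn23 was then short of a 2-fold change.

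The calls depended on the test. The direction of Cldn4 and Cldn23 was down in all 15 alternatives. Apart from the exceptions given next, both were called under every alternative that kept all 4 libraries. On TPM with limma neither was called, with adjusted p-values of 0.0874 to 0.314 for Cldn4 and 0.103 to 0.314 for Cldn23. The robust form of the quasi-likelihood test gave Cldn4 an adjusted p of 0.0563 and edgeR without a filter on low counts gave Cldn23 0.0554. Cldn3, Cldn2 and F11r were called lower by edgeR's exact test (adjusted p = 0.00254, 0.0185 and 0.00916) and by DESeq2 (0.00225, 0.0189 and 0.0164). Both of these tests called more genes lower over the whole table too, 1027 and 653, against 392 with the quasi-likelihood test.

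**Figure D3:**
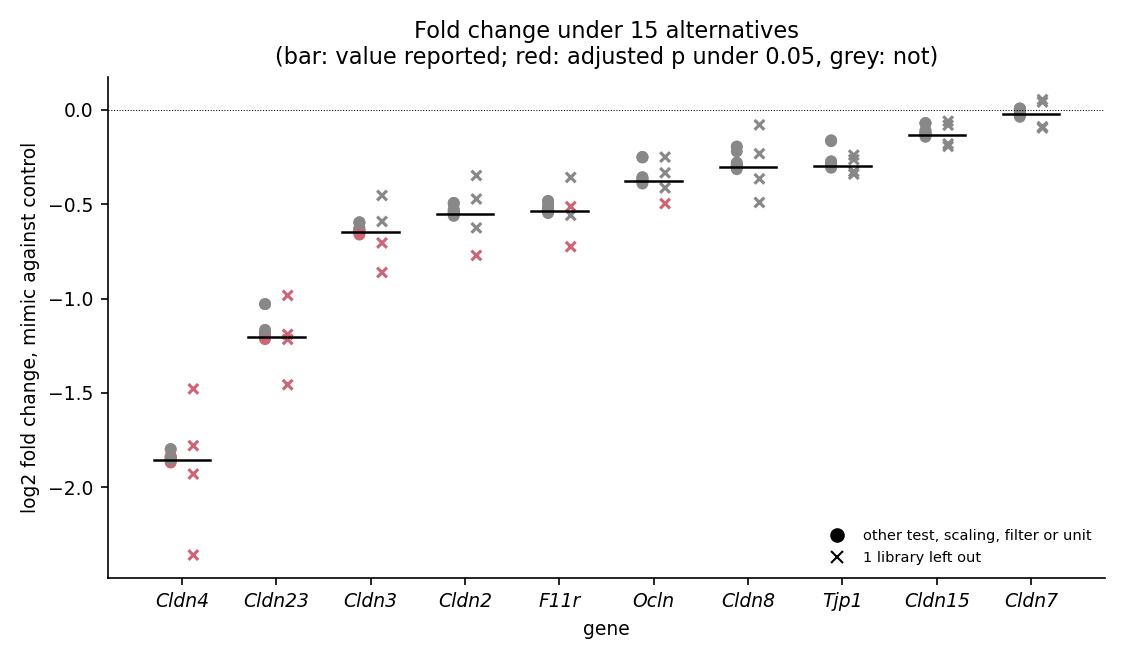
Log2 fold change of each of the 10 tight junction genes under 15 alternatives, with a bar for the value reported, dots for another test, scaling, filter or unit and crosses for 1 library left out (red: adjusted p under 0.05, grey: not). Crosses rest on 1 library in a group, so only their height is read. Cldn4 ranges from -2.36 to -1.48 and Cldn23 from -1.46 to -0.98, and only Cldn7 lies on both sides of 0.

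Compared per transcript length, Cldn7 was the most abundant of the 10 genes in every library. Its level was 434.9 and 490.3 TPM among the controls, against 426.3 and 505.3 under the mimic. In the controls it was followed in mean TPM by Cldn3, Cldn15, Cldn2, Ocln, F11r, Cldn4, Tjp1, Cldn23 and Cldn8, and the only neighbours in that order whose control values overlapped were F11r (66.24 and 67.92 TPM) and Cldn4 (67.92 and 61.51 TPM). With the mimic the order was Cldn7, Cldn15, Cldn3, Ocln, Cldn2, F11r, Tjp1, Cldn4, Cldn8 and Cldn23, and the values overlapped for Cldn15 and Cldn3, for Ocln and Cldn2, and for Cldn8 and Cldn23.

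Some genes changed place in this order between the groups. Cldn4 was above Tjp1 in both controls (67.92 and 61.51 against 38.58 and 39.89 TPM) and below it in both mimic libraries (12.58 and 25.22 against 33.51 and 36.48 TPM). Cldn3 was above Cldn15 in both controls (231.6 and 215.1 against 192.4 and 207.4 TPM) and below it in both mimic libraries (122.5 and 177.1 against 174.1 and 207.9 TPM). Cldn23 had 10.66 and 10.60 TPM in the controls, above Cldn8 with 8.19 and 6.19, and 3.81 and 5.75 TPM with the mimic, where Cldn8 had 5.58 and 6.67.

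The makeup of the claudin mRNA was then described, since the claudins of a cell share the strands of its junctions. Of 32 claudin genes listed, 8 passed the filter on low counts, the 7 claudins named above and Cldn12, and the other 24 had at most 12 counts in any library, with 11 of them at 0 in all 4 libraries. Cldn12, which encodes a claudin tied to paracellular calcium, had 63.3 and 63.0 normalized CPM among the controls, against 64.2 and 68.9 under the mimic (log2 fold change 0.08, 95% confidence interval -0.15 to 0.30). Summed over all 32 genes, claudin mRNA came to 1066 and 1124 TPM in the controls and to 829 and 1043 TPM with the mimic.

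Within that sum the share of Cldn4 was 6.37% and 5.47% among the controls, against 1.52% and 2.42% under the mimic, and that of Cldn3 was 20.4% ± 1.83 and 15.9% ± 1.55 (mean ± SD, n = 2). Cldn7 took 42.2% ± 2.00 of the claudin mRNA in the controls and 49.9% ± 2.13 with the mimic. The pore claudins Cldn2 and Cldn15 together took 27.7% ± 0.670 and 28.4% ± 0.0616, with Cldn2 at 9.46% ± 0.388 and 7.90% ± 0.829 and Cldn15 at 18.2% ± 0.282 and 20.5% ± 0.768. Cldn3 and Cldn4 together took 26.4% ± 2.46 in the controls and 17.8% ± 2.19 with the mimic. The ratio of Cldn3 to Cldn4 in TPM was 3.41 and 3.50 among the controls, against 9.74 and 7.02 under the mimic. These shares are mRNA per transcript length, they are bound to sum to the whole, and no test was made of them.

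**Figure D4:**
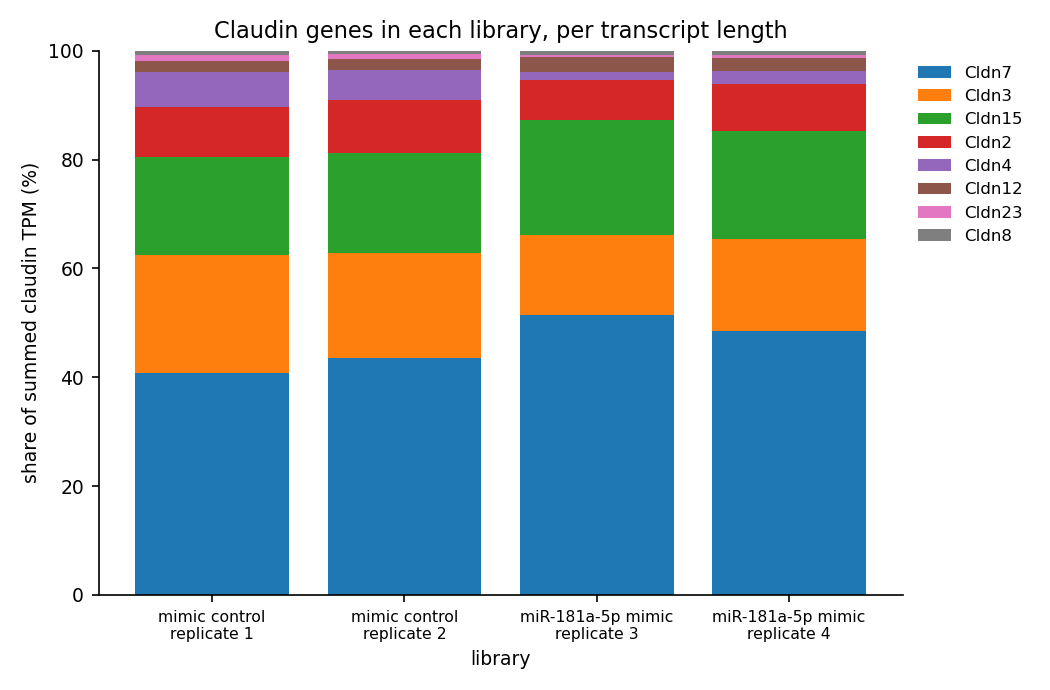
Share of each claudin gene in the summed claudin TPM (percent), as a stacked bar for each of the 4 libraries. Cldn4 takes 6.37% and 5.47% in the control libraries, against 1.52% and 2.42% in the mimic ones, and Cldn7 is the largest share in all 4.

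Cldn3 and Cldn4 lie on the same stretch of chromosome 5, 39.3 kb apart on opposite strands. The 250 bases before the start of each gene are printed because these claudins are next to each other and had both mimic libraries below both controls. The sequences are from RefSeq for GRCm38.p6, read on the strand of the gene, at chr5:134946935-134947184 (minus) for Cldn4 and chr5:134985964-134986213 (plus) for Cldn3. Capitals mark matches, on either strand, to TGACTCA (AP-1), CAGGTG (an E-box read by Snail and ZEB factors), GGGCGG (a GC box read by Sp1) and TTTATG (caudal-type homeobox factors).
Cldn4: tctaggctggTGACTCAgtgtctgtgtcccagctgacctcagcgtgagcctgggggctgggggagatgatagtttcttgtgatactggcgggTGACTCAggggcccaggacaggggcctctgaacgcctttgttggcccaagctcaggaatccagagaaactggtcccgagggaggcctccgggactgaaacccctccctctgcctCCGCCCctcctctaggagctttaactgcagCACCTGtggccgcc
Cldn3: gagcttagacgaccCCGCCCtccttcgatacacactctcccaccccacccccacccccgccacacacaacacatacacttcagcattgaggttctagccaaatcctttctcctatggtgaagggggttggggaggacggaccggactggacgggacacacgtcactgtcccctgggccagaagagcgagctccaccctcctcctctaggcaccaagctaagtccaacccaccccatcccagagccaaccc

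RefSeq promoter windows, which run from 250 bases before to 50 bases after the start, were at hand for 8 of the 10 genes, with 10 windows in all and none for Cldn8 or Cldn23. The Cldn4 window held 2 AP-1 matches, both printed above. Of 32851 windows, 0.222% held at least 2 and 5.20% at least 1. AP-1 matches also lay in the windows of F11r and Cldn15, so that 3 of 8 genes had one. E-box matches lay in the windows of 5 of 8 genes (20.2% of all windows), with 2 for Cldn4, of which one lies after the start. GC boxes lay in those of 7 of 8 genes (35.7% of all windows), and a caudal-type match lay in that of Cldn2 alone (11.9% of all windows). Cldn4 had 2 GC boxes, of which 1 runs across the start and is not marked above. The counts are per gene and the percentages per window. Cldn7 and Ocln had more than 1 window each, so counts and percentages are not like for like. The motifs were chosen after these sequences had been seen, and a match says nothing of whether a factor was bound.

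Values were also taken for other genes of the junctions. Lists of 113 further genes were drawn up by role, of which 112 were matched and 88 passed the filter on low counts. Of these 88 genes, 1 rose and 2 fell, 49 had a log2 fold change below 0, 35 were lower in both mimic libraries than in both controls and 22 higher, and their median was -0.04. At an unadjusted p under 0.05 there were 23 of the 88. Among all tested genes 1.28% rose, 2.29% fell and 51.4% were below 0. Both mimic libraries were lower than both controls in 29.5% of them and higher in 28.9%, and 24.8% had an unadjusted p under 0.05. No test of the 10 genes against these lists was made.

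By role, the membrane proteins nearest to those above (MARVEL proteins, angulins and immunoglobulin-like adhesion molecules) had 0 of 10 genes called and a median log2 fold change of -0.10. The cytoplasmic plaque, which holds the scaffolds next to ZO-1, had 1 of 14 genes called, Amotl2, and a median of -0.10. Polarity complexes, which place the junction along the cell's side, had 1 of 17 called, Pard6b, and a median of 0.04. In adherens junctions 0 of 11 genes were called (median -0.10), in desmosomes 0 of 10 (median -0.05), and among the contractile ring and the proteases of the junction 0 of 16 (median -0.04). Of these 16 genes 11 were below 0. One of them, Myl9, had the lowest log2 fold change of the 88 related genes, -3.09 (SE 0.66). It just missed the threshold, with an adjusted p of 0.0511 by edgeR's quasi-likelihood test. Myl9 was a low gene, with 96 and 40 counts among the controls, against 1 and 14 under the mimic. Of 9 transcription factors known for epithelial junction genes, 1 was called, Cdx1, and the median was 0.24.

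Amotl2, which encodes an angiomotin of the junction plaque that binds YAP, had 19.4 and 13.0 normalized CPM among the controls, against 4.82 and 5.36 under the mimic, and it fell by 1.67 on the log2 scale (SE 0.22, adjusted p = 0.0141 by edgeR's quasi-likelihood test). Pard6b, a subunit of the PAR complex with atypical protein kinase C, had 78.8 and 67.0 among the controls, against 39.0 and 50.4 under the mimic, and it fell by 0.71 on the log2 scale (SE 0.15, adjusted p = 0.0478 by edgeR's quasi-likelihood test). Cdx1, a homeobox gene of intestinal identity, had 97.3 and 89.6 among the controls, against 134 and 125 under the mimic, a rise of 0.47 on the log2 scale (SE 0.098, adjusted p = 0.0477 by edgeR's quasi-likelihood test). With all 4 libraries kept, Amotl2 was called under every alternative except the TPM fits. Pard6b was not called in the TPM fits, without normalization factors or without a filter on low counts. Cdx1 was not called in the TPM fits, with the legacy test or without that filter. Snai1, whose product binds E-boxes of junction genes, was at 0 counts in all 4 libraries. The other Snail and ZEB genes of the list were also below the filter. Snai2 had 7 and 4 counts among the controls, against 0 and 0 under the mimic. Zeb1 had 7 and 2 against 6 and 1, and Zeb2 0 and 1 against 0 and 0.

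**Figure D5:**
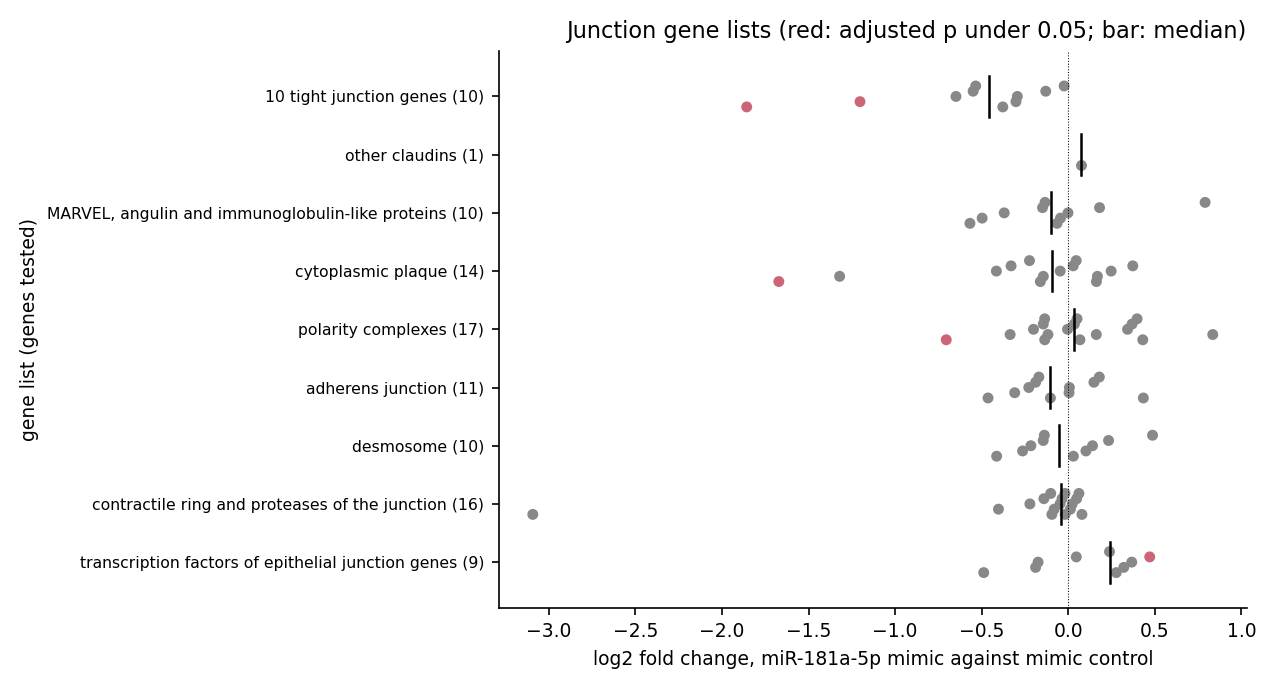
Log2 fold change, mimic against control, of the 10 tight junction genes and of the tested genes of 8 related lists (points; red: adjusted p under 0.05), with the median of each list as a bar. The medians of the related lists lie between -0.10 and 0.24 and that of the 10 genes at -0.46.

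The genes whose pattern over the 4 libraries was nearest to that of the called claudins were sought among the other junction genes, 97 in all, by Euclidean distance of mean-centred log2 normalized CPM. For Cldn4 these were Amotl2 (distance 0.658), Cldn23 (0.769) and Cgnl1 (0.932), and for Cldn23 they were Pard6b (0.541), Cldn3 (0.568) and Amotl2 (0.631). Cgnl1, which encodes the plaque protein paracingulin, had 16.9 and 8.16 normalized CPM among the controls, against 3.92 and 6.12 under the mimic. It was not called, with an adjusted p of 0.0851 by edgeR's quasi-likelihood test.

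Markers of the epithelial cell types were measured beside these values, because claudins are not equal along the crypt and villus and bulk libraries cannot tell fewer cells of a type from less RNA per cell. Enterocyte markers summed to 5872 and 6833 normalized CPM in the controls and to 5007 and 4869 with the mimic, with 1 of 12 called, Anpep, which fell by 2.14 on the log2 scale. Fabp1, at -0.91, was not called here, whereas the paper's supplementary edgeR results list it at an FDR under 0.05. Its log2 fold change there is also -0.91, and the paper does not say which test of edgeR was used. Stem cell markers summed to 2872 and 2195 in the controls and to 2559 and 2850 with the mimic. Of these 10 genes 1 was called, Lgr5, which fell by 1.38 on the log2 scale, and 6 had a log2 fold change above 0. Among all tested genes 2.29% were called lower and 1.28% higher. Paneth cell markers (1031 and 716 against 660 and 866, 0 of 7 called) and goblet cell markers (1498 and 1837 against 2005 and 1591, 1 of 8 called, Spink4, lower) overlapped between the groups in sum. Of the 8 goblet cell genes 4 had a log2 fold change above 0. The Paneth cell list had 6 of its 7 tested genes below 0 and a median log2 fold change of -0.80, beside -0.34 for enterocytes, 0.09 for stem cells and -0.14 for goblet cells. The sums of the enterocyte list did not overlap between the groups, but without Anpep they were 4022 and 5588 among the controls, against 4718 and 4458 under the mimic, which overlap, and 4 of its 12 genes (Sis, Lct, Krt20 and Slc5a1) had a log2 fold change above 0. The part of these cell types in the values of Cldn4, Cldn23 and the other tight junction genes was not tested.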

How the data were processed

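RNA-seq libraries of 2 mimic control and 2 miR-181a-5p mimic cultures of mouse SI organoids were analysed. After trimming with Trimmomatic, the authors quantified the reads on mm10 (GRCm38) transcripts by RSEM, and they deposited unnormalized expected counts per gene and TPM. The supplementary methods describe depletion of ribosomal RNA and the labels poly(A) selection. Another 3 columns of each table matched no sample and were not used.

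Rounded expected counts were compared by the quasi-likelihood test of edgeR 4.0.16 under R 4.3.3 (filterByExpr, TMM, estimateDisp, glmQLFit, glmQLFTest), with Benjamini-Hochberg adjustment over 17155 genes, after the script was tested on simulated counts. The SE is the size of the log2 fold change divided by the square root of F. Libraries held 31104884 to 38111731 expected counts, and precision was set by the spread between replicates (common biological coefficient of variation 0.13).

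The genes and lists were chosen with earlier results of these data known. The genes named are the 10 tight junction genes, the other claudin above the filter, in each related list up to 3 called genes in each direction, and for each called tight junction gene the 3 nearest in pattern. Other named genes were chosen after their values were seen. One listed symbol, Cldn25, was not matched. Transcripts, seed sites and coordinates came from GENCODE release 21 for mouse (GRCm38), with 3′ UTRs of at least 50 bases. The 15 alternatives were edgeR's exact test, its legacy and robust quasi-likelihood tests, RLE or no normalization factors, no filter or at least 10 counts in every library, DESeq2 1.42.0, limma 3.58.1 on log2 TPM (pseudocount 1 or 0.1, genes reaching 1 TPM in 2 libraries, or pseudocount 1 and no filter), and leaving out each library in turn, where the lone library was assumed to vary like the other group. Fold changes from TPM understate those of low genes. Sites of other types were sought too, and the type ending in an A (7mer-A1) and the enterocyte sum without Anpep were added after the data were seen.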

Additional observations from a re-analysis of the deposited data

How the results depend on the processing

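No paired analysis was possible because the groups share no replicate numbers. Counts of called genes are not given for fits with 1 library left out, which leave 1 library in a group. The 10 tight junction genes called lower, 2 in the report, were 5 with edgeR's exact test and with DESeq2. They were 3 with at least 10 counts in every library (Cldn3 added, adjusted p = 0.0490 by edgeR's quasi-likelihood test), 1 with the robust test, 1 without a filter and 0 in each of the 3 TPM fits. Those lower by at least 2-fold, also 2, were 1 with the robust test, 1 without a filter and 0 in the TPM fits. No alternative called any of the 10 higher. Related junction genes called higher and lower, 1 and 2 in the report, were 6 and 8 with the exact test, 9 and 7 with DESeq2, and 2 and 1 without normalization factors. They were 0 and 1 without a filter, 0 and 0 in the TPM fits, and 0 higher with the legacy test. All genes called higher and lower, 220 and 392 in the report, were 761 and 1027 with the exact test, 646 and 653 with DESeq2, and 67 and 125 without a filter. They were 32 and 43 on log2(TPM + 1), 11 and 16 on log2(TPM + 0.1), 2 and 0 on TPM without a filter, and 159 to 1152 higher and 214 to 1213 lower with 1 library left out. The cause of these differences was not tested. The log2 fold change of Cldn7 was above 0 in the TPM fits (0.0073 with either pseudocount and 0.0073 without a filter), and it ranged from -0.0958 to 0.0548 with 1 library left out, above 0 without control replicate 2 (0.0419) or mimic replicate 3. Seed sites, 0 of the 10 genes in the report, were 1 in coding sequence and 1 for the type ending in an A. With 2 libraries per group and a single gene limited to p = 0.333 in an exact permutation test, the calls rest on the spread shared across genes.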

Other observations

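The tested genes next to the called claudins and to Cldn3 on the chromosome were looked up after the values had been seen. Mettl27, 2.48 kb from Cldn4, had 17.1 and 11.3 normalized CPM among the controls, against 7.24 and 10.6 under the mimic (log2 fold change -0.68, adjusted p = 0.156 by edgeR's quasi-likelihood test). Limk1, 257 kb from Cldn4 on the same side, had 1.90 and 3.32 among the controls, against 4.34 and 3.99 under the mimic (log2 fold change 0.69, not called). Abhd11, which encodes a mitochondrial hydrolase and lies 21.7 kb beyond Cldn3, had 47.6 and 45.4 among the controls, against 46.9 and 47.2 under the mimic, a log2 fold change of 0.02. The low gene Gm43372, 19.6 kb from Cldn3 on the same side, had 0.990 and 0.774 normalized CPM among the controls, against 0.511 and 0.730 under the mimic (log2 fold change -0.51, not called). Wbscr25, which overlaps Cldn3 on the other strand, had a log2 fold change of -1.07 and was not called either. Around Cldn23 the nearest tested genes were farther off. Mfhas1, at 145 kb, had 1.75 and 1.29 normalized CPM among the controls, against 1.18 and 1.91 under the mimic. Prag1, at 268 kb on the other side, had 87.4 and 81.7 among the controls, against 57.3 and 61.3 under the mimic, and it fell by 0.51 on the log2 scale (SE 0.099, adjusted p = 0.0404 by edgeR's quasi-likelihood test). Farther out, Eri1 at 329 kb and Lonrf1 at 390 kb had log2 fold changes of 0.17 and -0.16 and were not called.

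The caudal-type homeobox gene Cdx2 had a log2 fold change of 0.32, with an adjusted p of 0.0902 by edgeR's quasi-likelihood test, beside the call of Cdx1. Krt18, a keratin gene of simple epithelia on the epithelial marker list, had a log2 fold change of -0.60 and was not called.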
